A study of Mus musculus with 4 samples.

Results

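The genes described here are those of the mouse major histocompatibility complex (MHC, called H2 in mice) and of the machinery that loads its molecules with peptides. A probe set was taken where the platform annotation gave it exactly 1 gene with a symbol starting with H2-, or 1 of 10 further genes (Mr1, B2m, Cd1d1, Cd74, Ciita, Nlrc5, Tap1, Tap2, Tapbp and Erap1), and of several probe sets for 1 gene, that with the highest average was used. This gave 43 genes of 22180, from 47 probe sets. Of the 43, 34 had H2- symbols and 9 were from the further list, since the probe set of Cd74 was annotated to a second gene as well. By role, 30 genes belong to the class I pathway, 12 to the class II pathway, and H2-Ke6, which encodes a steroid dehydrogenase and sits in the H2 region, belongs to neither.

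Expression was measured with microarrays in RNA from the gastric corpus, the acid-secreting part of the stomach, of adult mice aged 8 to 10 weeks after 14 days of daily intraperitoneal injections. AMPK KO mice (Atp4b-cre; Prkaa1 fl/fl; Prkaa2 fl/fl) carry floxed alleles of both genes for the catalytic subunit of AMPK, an energy-sensing kinase, which Cre deletes where the Atp4b promoter is active, in parietal cells. They received metformin at 300 mg/kg (KO metformin) or saline (KO vehicle), and wild-type C57BL/6 mice (WT), for which the labels name no Cre or floxed allele, received the same dose of metformin (WT metformin) or saline (WT vehicle). With 1 array for each of the 4 groups, a difference between 2 arrays could not be set against a spread between replicates. How many animals an array stands for is not given here. The KO mice were bred from an Atp4b-cre line on a background of B6 and FVB, and the H2 haplotype of FVB differs from that of C57BL/6. The effect of the knockout, the effect of the strain background and the fit of an allele to the probes therefore cannot be told apart between genotypes. This holds for H2 genes and for genes elsewhere, Mr1 among them.

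MHC class I molecules are made of a heavy chain and the light chain β2-microglobulin, and show peptides from the cytosol to CD8 T cells and natural killer cells. The proteasome cuts these peptides, the transporter of Tap1 and Tap2 carries them into the endoplasmic reticulum, Erap1 trims them and tapasin (Tapbp) helps load them. Class II molecules are pairs of an α and a β chain that show peptides from the endosome to CD4 T cells, and are made mainly by dendritic cells, macrophages and B cells, under control of the transactivator Ciita. Interferon-γ can also induce class II genes in epithelial cells.

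The promoters of 6 genes are shown as examples, because class I and class II promoters are known for shared elements. The sequences are RefSeq's and run from 250 bases before to 50 bases after the gene's start (assembly GRCm38.p6), 5′ to 3′ along the gene. Capitals mark 3 motifs searched on both strands: the core of the interferon-stimulated response element, which is GAAA repeated after any 2 bases, CTNGCAAC, the core of the X1 box bound by the class II regulator RFX, and CCAAT, known there as the Y box.
Mr1, chr1:155146765-155147064, minus strand: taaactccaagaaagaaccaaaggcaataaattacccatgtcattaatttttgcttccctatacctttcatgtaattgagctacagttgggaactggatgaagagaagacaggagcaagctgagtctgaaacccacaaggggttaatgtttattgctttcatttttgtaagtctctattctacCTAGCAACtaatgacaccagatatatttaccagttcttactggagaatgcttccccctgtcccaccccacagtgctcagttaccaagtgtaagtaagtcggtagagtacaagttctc
H2-Eb1, chr17:34305617-34305916, plus strand: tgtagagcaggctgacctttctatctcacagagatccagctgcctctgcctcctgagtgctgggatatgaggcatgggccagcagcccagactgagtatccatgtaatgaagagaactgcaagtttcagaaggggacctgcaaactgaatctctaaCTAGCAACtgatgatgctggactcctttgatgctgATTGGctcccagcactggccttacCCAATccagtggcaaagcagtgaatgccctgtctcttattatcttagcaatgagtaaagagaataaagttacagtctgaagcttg
H2-Aa, chr17:34287774-34288073, minus strand: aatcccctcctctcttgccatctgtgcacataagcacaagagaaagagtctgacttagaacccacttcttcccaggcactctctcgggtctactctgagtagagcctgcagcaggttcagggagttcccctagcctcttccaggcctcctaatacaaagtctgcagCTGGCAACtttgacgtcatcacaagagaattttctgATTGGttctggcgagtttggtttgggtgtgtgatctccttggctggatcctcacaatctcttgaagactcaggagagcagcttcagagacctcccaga
H2-T23, chr17:36032652-36032951, minus strand: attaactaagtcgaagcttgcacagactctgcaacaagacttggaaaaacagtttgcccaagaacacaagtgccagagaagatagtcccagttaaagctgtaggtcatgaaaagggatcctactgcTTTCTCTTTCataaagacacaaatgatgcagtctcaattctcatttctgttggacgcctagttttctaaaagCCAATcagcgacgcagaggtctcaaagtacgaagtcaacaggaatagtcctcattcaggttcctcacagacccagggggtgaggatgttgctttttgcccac
B2m, chr2:122147437-122147736, plus strand: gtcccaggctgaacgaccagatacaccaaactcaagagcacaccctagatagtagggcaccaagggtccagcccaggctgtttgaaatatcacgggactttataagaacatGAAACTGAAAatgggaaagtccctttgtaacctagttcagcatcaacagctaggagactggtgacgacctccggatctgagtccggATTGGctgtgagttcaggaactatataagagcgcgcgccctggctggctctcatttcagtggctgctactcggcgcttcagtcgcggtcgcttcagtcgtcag
Tap1, chr17:34187306-34187605, plus strand: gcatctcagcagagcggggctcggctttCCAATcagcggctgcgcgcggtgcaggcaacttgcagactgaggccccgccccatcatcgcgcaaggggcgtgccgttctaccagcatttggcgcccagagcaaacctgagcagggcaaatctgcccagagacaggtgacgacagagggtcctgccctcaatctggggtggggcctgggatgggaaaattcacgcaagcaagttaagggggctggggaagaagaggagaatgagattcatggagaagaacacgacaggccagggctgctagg
Of the 43 genes, 30 matched the promoter table. The X1 core was in the windows of 6 of these 30, against 3.42% of all 32851 windows, and those were H2-Aa, H2-Eb1, H2-Eb2, H2-Ob, H2-M10.5 and Mr1. The response element core was in 3 (B2m, Erap1 and H2-T23), which is 10.0% against 3.44%, and CCAAT in 26, which is 86.7% against 37.4%. A member counted where any of its windows matched, whereas the background is a share of single windows, so the units differ. All 6 windows shown hold a motif, while that of H2-Q10, not shown, has no match. The members belong to gene families with related promoters, and a match is no evidence that a factor binds there.

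Before the members, the arrays themselves were checked. Prkaa1 had log2 values of 8.66 on the KO metformin array, 8.18 on the KO vehicle array, 8.90 on the WT metformin array and 9.46 on the WT vehicle array, and Prkaa2 had 7.52, 7.19, 8.02 and 8.90. On the KO vehicle array both targeted genes had their lowest value, in RNA of whole corpus that also holds cells other than parietal cells. Under metformin KO minus WT was -0.24 for Prkaa1 and -0.50 for Prkaa2, against -1.28 and -1.71 under vehicle. All 15 parietal cell markers were measured. Their median difference in KO against WT was -0.42 under vehicle, with 1 of the 15 above 0, and 0.07 under metformin. For metformin against vehicle it was 0.14 in KO and -0.57 in WT. The part of parietal cells in the Prkaa1 and Prkaa2 values was not tested. Of the 15 markers, 14 exceeded 5.03, the median level over all genes, on every array. This log2 value served as the expression filter, and 17 of the 43 genes had a mean over the 4 arrays at or above it, 14 lay above it on each array, 23 lay below it on each array, and these 23 include most H2-M genes, Cd1d1 and Nlrc5. A gene was called at a log2 difference of at least 1 (2-fold) between 2 arrays, without a p-value. A call that involves a value under 5.03 is a log2 difference only, and its size is not read as a fold.

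**Figure D1:**
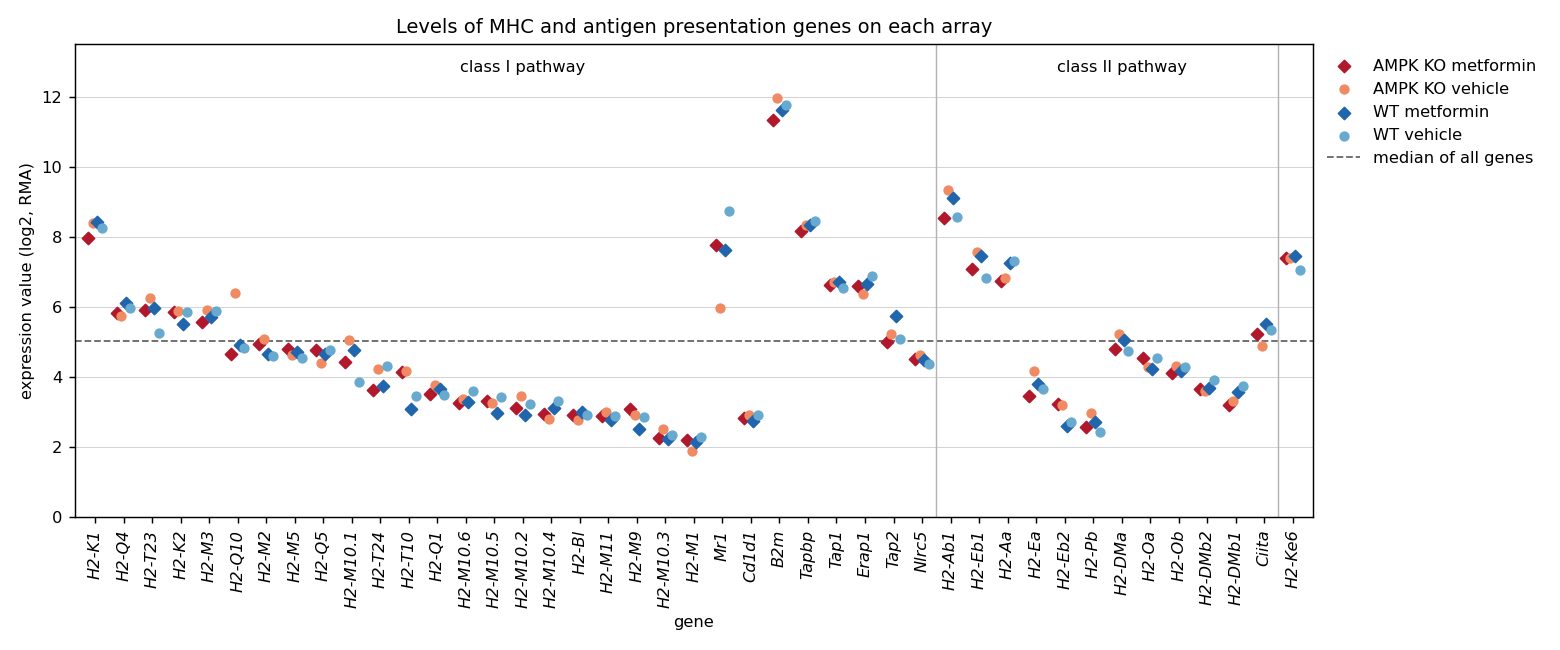
Log2 expression value (vertical axis) of each of the 43 genes (horizontal axis) on the KO metformin, KO vehicle, WT metformin and WT vehicle arrays, with 1 point per array and the median of all genes (5.03) as a dashed line. Mr1 stands out by its spread over the arrays, with 5.97 for KO vehicle and 8.72 for WT vehicle.

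Most of the 43 genes differed little among the arrays. The distance between the highest and the lowest array was under 1 for 38 of them on the log2 scale, with a median of 0.49. Over all genes the median distance was 0.51. The 5 genes with a distance of 1 or more were Mr1 (2.75), H2-Q10 (1.73), H2-M10.1 (1.20), H2-T10 (1.10) and H2-T23 (1.01), all in the class I pathway. That is 11.6% of the members, against 9.72% of all genes. None of the 12 class II genes reached this distance.

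Mr1, a class I-like molecule that shows vitamin B metabolites to mucosal-associated invariant T cells and lies on chromosome 1, outside the H2 region, had the widest spread of the 43 genes. Its log2 value was 7.75 on the KO metformin array, 5.97 on the KO vehicle array, 7.62 on the WT metformin array and 8.72 on the WT vehicle array. The vehicle arrays of the 2 genotypes thus lay at the extremes and the 2 metformin arrays close together between them. Under vehicle, Mr1 was 6.75-fold lower in KO than in WT (a difference of -2.75), which placed it 11th from the lowest of 22180 genes. Under metformin the genotypes differed by 0.13. With metformin it was 3.44-fold higher than with vehicle in KO (1.78) and 2.14-fold lower in WT (-1.10). It was the only one of the 43 genes called in more than 2 of the 4 comparisons.

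The first comparison was between genotypes under vehicle. Among the 43 genes, H2-Q10, H2-M10.1 and H2-T23 were called higher in KO and Mr1 was called lower. On the WT vehicle array H2-Q10 and H2-M10.1 were below 5.03. These 4 genes are 9.30% of the members, against 7.24% of all 22180 genes called in this comparison, so the share lay near that of all genes. By direction, 2.69% of all genes were called higher and 4.55% lower. The median difference was 0.07 over the 30 class I genes and 0.26 over the 12 class II genes, against 0.03 over all genes.

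H2-T23 encodes Qa-1, a class I molecule that shows leader peptides of other class I chains to the inhibitory NKG2A receptor of natural killer cells. It had a log2 value of 5.89 on the KO metformin array, 6.25 on the KO vehicle array, 5.97 on the WT metformin array and 5.25 on the WT vehicle array, so that the WT vehicle array was below the other 3. The KO vehicle array was above the WT vehicle array by 1.01. With each array centred on its median the difference was 0.86, under the 2-fold mark.

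H2-Q10, a class I heavy chain known as a secreted product of the liver, had log2 values of 4.66 (KO metformin), 6.39 (KO vehicle), 4.90 (WT metformin) and 4.81 (WT vehicle). Only the KO vehicle array lay above the filter value, by 1.57 over the WT vehicle array. A further probe set of this gene, below the filter value on every array (2.35 to 3.07), gave the same direction with a smaller difference (0.53). H2-M10.1, of a family known from vomeronasal neurons, had 4.42 (KO metformin), 5.04 (KO vehicle), 4.77 (WT metformin) and 3.84 (WT vehicle). Only the KO vehicle array reached the filter value. The other 5 measured genes of that family (H2-M10.2 to H2-M10.6) lay below it and differed by between -0.52 and 0.24 in the same comparison.

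The classical and common class I components differed by less. The classical heavy chain H2-K1 had 7.97 on the KO metformin array, 8.39 on the KO vehicle array, 8.42 on the WT metformin array and 8.24 on the WT vehicle array, with a difference of 0.15 under vehicle. B2m, the light chain of all class I molecules, had 11.33, 11.96, 11.62 and 11.75 on the same arrays. Its values were highest on the KO vehicle and lowest on the KO metformin array, with a genotype difference of 0.21 under vehicle and -0.29 under metformin. H2-M3, which shows formylated bacterial peptides, had 5.57, 5.91, 5.70 and 5.89 on these arrays. The 19 heavy chain genes other than H2-Q10, H2-M10.1 and H2-T23 differed by between -0.52 (H2-M10.4) and 0.70 (H2-T10) under vehicle. Cd1d1, a class I-like molecule that shows lipids, lay below the filter value on each array (2.75 to 2.91), and H2-Ke6 had 7.40, 7.38, 7.45 and 7.04.

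Of the peptide loading genes, Tap1 had 6.62 on the KO metformin array, 6.71 on the KO vehicle array, 6.69 on the WT metformin array and 6.54 on the WT vehicle array. The 4 values lay within 0.17 of each other. Tapbp had 8.17, 8.35, 8.33 and 8.46 and Erap1 6.58, 6.35, 6.64 and 6.89 on the same arrays, with genotype differences under vehicle of -0.11 and -0.54. A second probe set of Tapbp gave 0.17, with the sign turned. Nlrc5, the transactivator of class I genes, had 4.51, 4.61, 4.49 and 4.36, below the filter value on each array.

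The immunoproteasome genes next to the transporter genes differed by more. Psmb9 and Psmb8, which encode catalytic subunits of the proteasome form that interferon induces, lie with Tap1 and Tap2 in 1 cluster on chromosome 17, and the RefSeq starts of Tap1 and Psmb9 lie 226 bases apart on opposite strands. Psmb9 had log2 values of 5.10 (KO metformin), 5.63 (KO vehicle), 5.18 (WT metformin) and 4.55 (WT vehicle). Psmb8 had 5.85, 6.65, 6.18 and 5.53 on these arrays. Both were lowest on the WT vehicle and highest on the KO vehicle array, with differences of 1.09 and 1.13 under vehicle, against 0.17 for Tap1 and 0.15 for Tap2. Of the 20 measured genes in a list of 22 class I processing genes outside the 43, Psme2 (1.26), Psmb8 and Psmb9 were called higher in KO under vehicle and Sppl3 (-1.04) lower, Psmb9 with its WT vehicle value under the filter value, and with a list median of -0.10. Psme2 encodes a subunit of the proteasome activator PA28 and Sppl3 a membrane protease.

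Of the 6 class II chain genes, H2-Aa alone was lower in KO than in WT under vehicle. H2-Ab1, the β chain of the I-A molecule, had 8.54 on the KO metformin array, 9.33 on the KO vehicle array, 9.11 on the WT metformin array and 8.56 on the WT vehicle array. H2-Eb1, the β chain of I-E, had 7.09, 7.57, 7.45 and 6.82 on the same arrays. Both were highest on the KO vehicle array, 0.76 and 0.74 above the WT vehicle array. H2-Aa, the α chain that pairs with H2-Ab1, had 6.73 (KO metformin), 6.82 (KO vehicle), 7.26 (WT metformin) and 7.32 (WT vehicle). Both KO arrays lay below both WT arrays for this gene, with differences of -0.50 under vehicle and -0.53 under metformin. H2-Ea, the I-E α chain that C57BL/6 mice do not make, lay below the filter value on each array (3.44 to 4.17). Its difference under vehicle was 0.53, and those of H2-Eb2 and H2-Pb, also below the filter value, were 0.50 and 0.53.

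The other class II genes were close to or below the filter value. Ciita had 5.23 on the KO metformin array, 4.87 on the KO vehicle array, 5.50 on the WT metformin array and 5.35 on the WT vehicle array. It was lowest on the KO vehicle array, where H2-Ab1 and H2-Eb1 were highest, with a difference of -0.47 under vehicle. H2-DMa, a chain of the peptide exchange factor for class II, had 4.80, 5.22, 5.04 and 4.73 on these arrays, and its partners H2-DMb1 and H2-DMb2 lay between 3.19 and 3.91. H2-Oa and H2-Ob, which encode the inhibitor of that factor, lay between 4.10 and 4.54. Of 17 class II regulation and processing genes outside the 43, none was called higher in KO under vehicle and 2 lower, the CCAAT-binding subunit Nfyc (-1.10) and the lysosomal protease Ctsb (-1.02). Their median was -0.15.

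**Figure D2:**
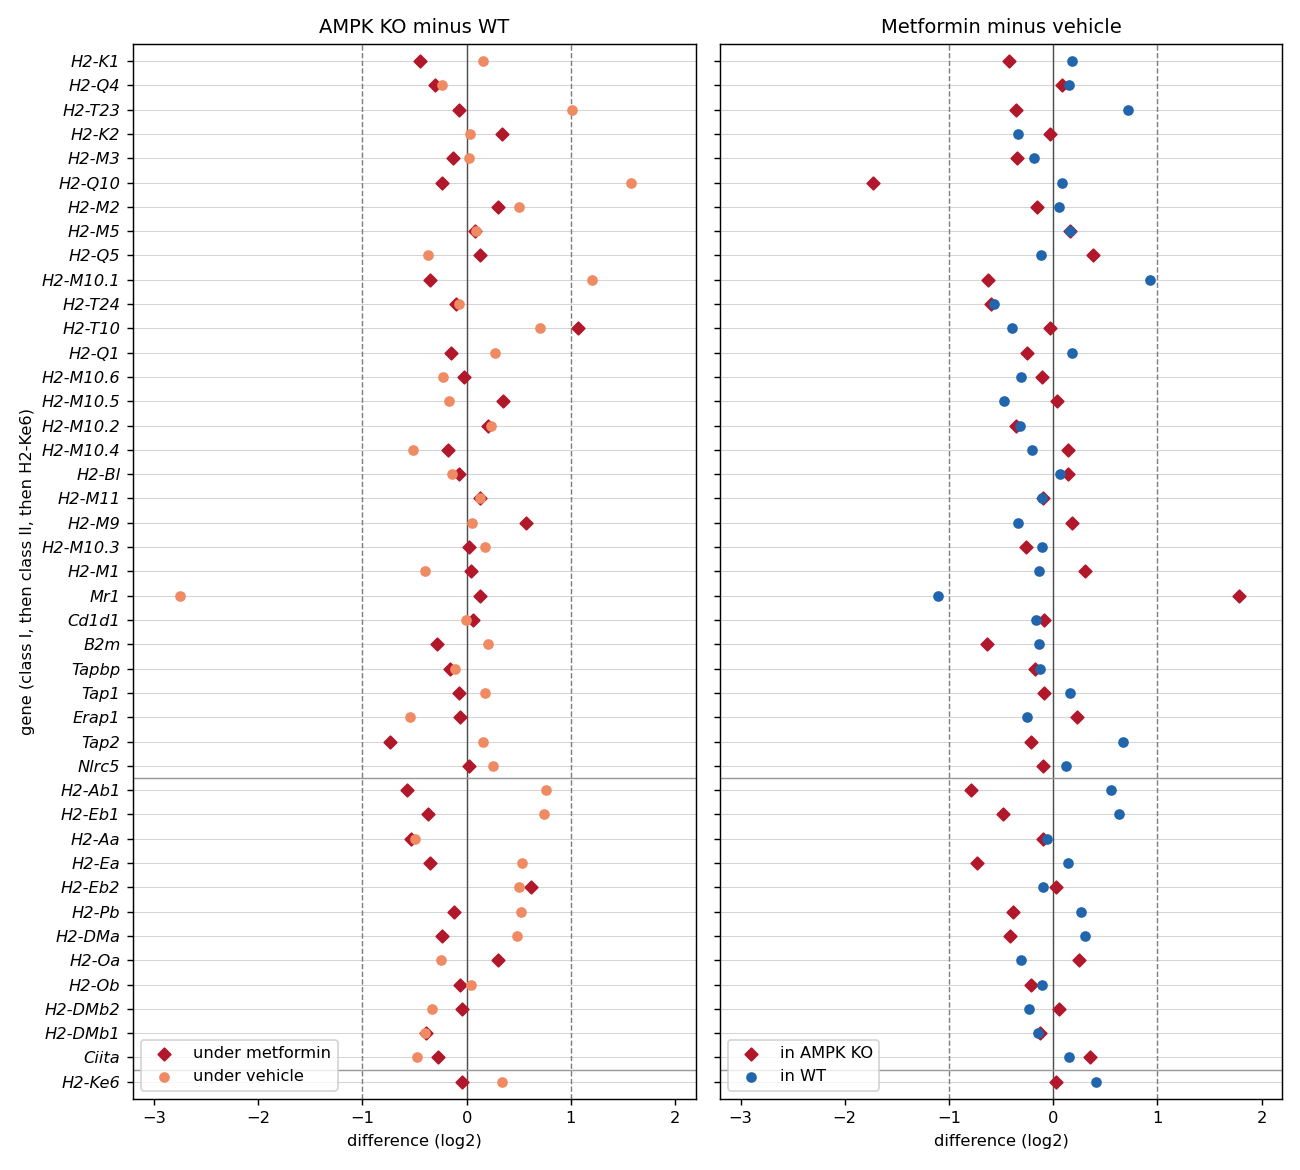
Log2 differences of the 43 genes, AMPK KO minus WT under metformin and under vehicle (left) and metformin minus vehicle in AMPK KO and in WT (right), with dashed lines at a 2-fold difference. Mr1 differed by -2.75 between genotypes under vehicle and by 0.13 under metformin, and most other genes lay within 1 of 0.

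Markers of antigen-presenting cells were in part highest on the same array as H2-Ab1 and H2-Eb1. Cd209a, a lectin of dendritic cells, had 9.04 on the KO metformin array, 9.54 on the KO vehicle array, 9.50 on the WT metformin array and 8.13 on the WT vehicle array. Of 9 dendritic cell markers 8 were measured, of which 1 passed the filter and 5 lay below the filter value on every array. Summed on a linear scale over the list they gave 684 (KO metformin), 914 (KO vehicle), 869 (WT metformin) and 415 (WT vehicle). Cd209a made up most of this sum, and without it the other 7 gave 157 (KO metformin), 171 (KO vehicle), 143 (WT metformin) and 135 (WT vehicle). The list median was 0.41 in KO against WT under vehicle, with Cd209a (1.40) and Clec10a (1.32, below the filter value on every array) called higher. Of 14 macrophage and monocyte markers, Lyz2 (1.46) and Aif1 (1.26, with its WT vehicle value under the filter value) were called higher in that comparison. None was called lower, and Mrc1 (-0.97) and C1qb (-0.83) were lowest. All 14 passed the filter, and 6 of them were above 0, against 3661 of all 11090 genes past it. The list median was -0.18, against -0.22 over all genes past the filter. Summed levels were 1217, 1391, 1320 and 1313 in the same order of arrays. All 8 measured B cell markers of 9 lay below the filter value on every array (summed levels 95.4, 111, 100 and 95.4). The part of these cells in the class II values was not tested, and in whole tissue more cells of a type and more RNA per cell cannot be told apart. Of 15 measured T and natural killer cell markers, 12 lay below the filter value on each array. In KO against WT under vehicle their median was 0.43, that of the B cell list 0.23 and that of 14 squamous epithelial markers 0.70. The medians of the plasma cell (-0.08), endothelial (-0.51) and parietal cell (-0.42) lists were below 0, against 0.03 over all genes.

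Interferon signalling genes had a median of -0.15 in KO against WT under vehicle over 18 measured genes of 19. Irf7, a transcription factor that interferon induces, was highest of them (0.95), and the receptor subunit Il10rb (-1.09) was the only one called. Irf1, which acts on class I promoters, differed by 0.25 and the feedback inhibitor Socs1 by 0.60.

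Gene length went with the difference under vehicle. With genes past the filter put in 4 equal classes by genomic span, the median of KO minus WT under vehicle was 0.06 in the shortest class and -0.35 in the longest. Under metformin these medians were -0.02 and 0.06. For metformin minus vehicle they were 0.0065 and 0.17 in KO, and 0.07 and -0.24 in WT. Of the 17 members past the filter, 10 were in the shortest class, 5 in the next and 0 in the longest. Mr1, with a span of 18941 bases, was in the second class, where the median of KO minus WT under vehicle was -0.19. The part of gene length in the members' values was not tested.

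Within the H2 region on chromosome 17, between the outermost H2- genes in the RefSeq table, 142 measured genes were no members. Their median difference in KO against WT under vehicle was 0.14, and so was that of the 36 members there, against 0.03 over all genes. Over the 74 of the 142 past the filter it was -0.03, against -0.22 over all genes past the filter. Of the 142, 6 were called higher and 6 lower. Of the 36 members there, 3 were called higher and 0 lower, against 2.69% and 4.55% of all genes.

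**Figure D3:**
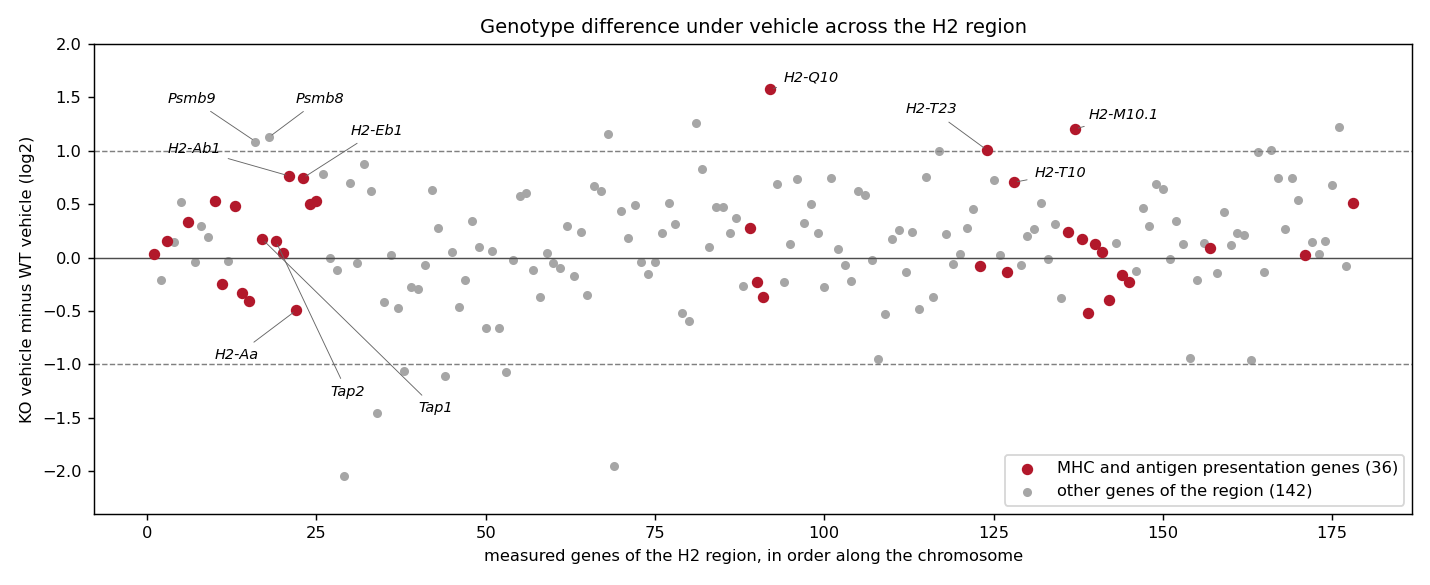
Log2 difference of KO vehicle from WT vehicle (vertical axis) for the 178 measured genes of the H2 region in their order along chromosome 17 (horizontal axis), with the 36 MHC and antigen presentation genes in red and the 142 other genes in grey. H2-Q10 (1.57) is highest, and Tap1 (0.17) and Tap2 (0.15) lie beside Psmb9 (1.09) and Psmb8 (1.13).

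Under metformin the genotypes differed in fewer of these genes. H2-T10, a class I molecule recognised by some γδ T cells, was the only one called, which is 2.33% of the members, against 0.974% of all genes (0.631% higher and 0.343% lower). It had log2 values of 4.14 on the KO metformin array, 4.17 on the KO vehicle array, 3.07 on the WT metformin array and 3.46 on the WT vehicle array, all below the filter value. Both KO arrays lay above both WT arrays, by 1.07 under metformin and 0.70 under vehicle. The class II gene H2-Eb2 did likewise at low values (0.62 and 0.50).

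The lowest difference between genotypes under metformin was that of Tap2 (-0.73), which had 5.0 on the KO metformin array, 5.22 on the KO vehicle array, 5.74 on the WT metformin array and 5.07 on the WT vehicle array. The WT metformin array stood above the other 3 for this gene. H2-Ab1 (-0.57), H2-Aa (-0.53), H2-K1 (-0.45) and H2-Eb1 (-0.37) were lower in KO as well. Of the 12 class II genes, 2 were above 0 (H2-Eb2 and H2-Oa), and the median was -0.25, against -0.04 over the class I genes and -0.0014 over all genes. In this comparison the median was -0.01 for the dendritic cell list (Cd209a -0.46), -0.13 for the macrophage and monocyte list (Lyz2 -0.36), -0.08 for the B cell list and -0.18 for the T and natural killer cell list. Over 14 measured squamous epithelial markers the median was 1.02, with 7 called higher and 0 lower. The part of squamous epithelium in the members' values under metformin was not tested. Psmb8 and Psmb9 differed by -0.33 and -0.08, and none of the 20 class I processing genes was called.

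The 2 genotype comparisons share no array. Across the 43 genes their differences had a Pearson correlation of -0.06, given as a description over genes that are not independent, and 21 of 43 had the same sign. Over all genes the correlation was -0.0023 and 46.9% had the same sign. H2-T10 alone had differences of at least 0.5 in the same direction in both, which is 2.33%, against 2.32% of all genes. H2-Eb2 (0.498) and H2-Aa (-0.495) fell just short of 0.5 under vehicle.

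The next comparison was of metformin with vehicle in KO. Mr1 (1.78) was called higher and H2-Q10 (-1.73) called lower among the 43 genes, which is 4.65% against 2.51% of all genes (1.53% higher and 0.983% lower). H2-Q10 was 12th from the lowest of all genes, through its value on the KO vehicle array. The median difference was -0.10 over class I and -0.17 over class II genes, against -0.02 over all genes. H2-Ab1 (-0.79), H2-Ea (-0.73), B2m (-0.63), H2-M10.1 (-0.62) and H2-T24 (-0.59) followed below, and Psmb8 (-0.80) and Psmb9 (-0.54) were lower too. Highest after Mr1 were H2-Q5 (0.38) and Ciita (0.35). A second probe set of H2-Q4, under the filter value, was higher by 1.14, while the one that stood for the gene differed by 0.08. Of 14 measured squamous epithelial markers, 8 were called higher in the same comparison, with summed linear levels of 3726 on the KO metformin array and 1047 on the KO vehicle array, and their part in the members' values was not tested.

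Metformin was compared with vehicle in WT as well. Mr1 (-1.10) was the only one of the 43 genes called, 2.33% against 1.34% of all genes (0.667% higher and 0.676% lower), and after cyclic loess scaling its difference was -0.97. Highest were H2-M10.1 (0.93), H2-T23 (0.72), Tap2 (0.67), H2-Eb1 (0.63) and H2-Ab1 (0.55), all lowest on the WT vehicle array except H2-Ab1 and Tap2, which were lowest on the KO metformin array. Psmb8 (0.65) and Psmb9 (0.63) had differences of like size. Class I genes had a median of -0.12 and class II genes of 0.04, against -0.01 over all genes. The dendritic cell list had a median of 0.26 with 6 of 8 genes above 0 (Cd209a 1.37). The macrophage and monocyte list had a median of -0.11 with 5 of 14 above 0 (Lyz2 and Aif1 0.82 each, Mertk -0.73). Over all genes past the filter the median was -0.14, with 3835 of 11090 above 0.

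**Figure D4:**
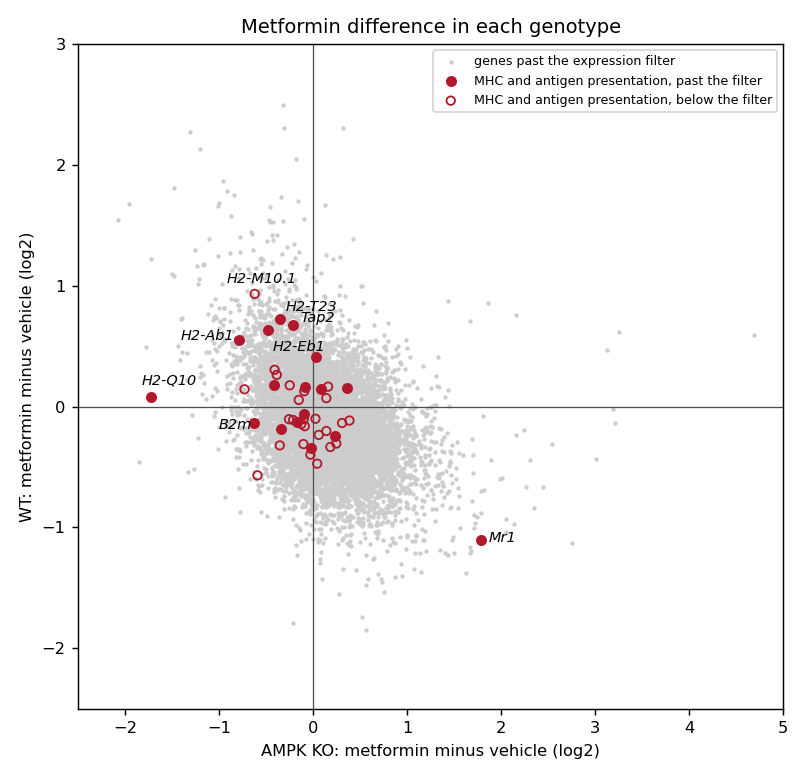
Log2 difference of metformin from vehicle in AMPK KO (horizontal axis) and in WT (vertical axis), for the 11090 genes past the expression filter (grey) and the 43 MHC and antigen presentation genes (red, filled where past the filter and open where below it). Mr1 lies at 1.78 in KO and -1.10 in WT, and H2-Ab1 at -0.79 in KO and 0.55 in WT.

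The 2 metformin comparisons also share no array. Across the 43 genes their differences had a Pearson correlation of -0.50, and of -0.32 without Mr1, against -0.34 over all genes. Opposite signs with both differences of at least 0.5 were found for 3 of the 43 (Mr1, H2-Ab1 and H2-M10.1), which is 6.98%, against 4.54% of all genes. Of the 43 genes, 20 were highest on the KO vehicle array (46.5%, against 33.2% of all genes) and 4 on the KO metformin array (9.30%, against 19.4%). On the WT vehicle array 13 were highest (30.2%, against 30.1%). Among the 17 past the filter, 8 were highest on KO vehicle, against 19.7% of genes past it, and 4 on WT vehicle, against 46.2%. H2-Q10, above the filter value on the KO vehicle array only, is among the 8.

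An additive fit over all 4 arrays, with genotype and treatment as terms, set 2 arrays against 2 with limma and Benjamini-Hochberg adjustment over 11090 genes past the filter. Its 1 residual degree of freedom takes up any difference between the metformin responses too. None of the 17 members tested was called for genotype, where 0.0451% of all genes were called, or for metformin, where 0% were. For genotype all 17 had the same adjusted p of 0.999. At an unadjusted p under 0.05, 1 member (Mr1, with an average difference of -1.31, SE 0.57) passed for genotype, where 3.37% of all genes did, and 0 for metformin, where 0.289% did. After centring each array on its median, the adjusted p of Mr1 for genotype was 0.107. H2-Aa had an average genotype difference of -0.51 (SE 0.30), lower on 2 of 2 KO arrays than on both WT arrays. These p-values do not show that the levels were alike.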

How the data were processed

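Corpus RNA went onto 4 Affymetrix arrays (WT Plus labelling, per the labels' protocols). Per the submitters' processing notes, the deposited log2 values were made in Partek with RMA, and they span 0.77 to 14.02. Tool versions and settings are not given here. Of 41345 probe sets, the platform annotation gave 23521 exactly 1 gene, 1814 several, and 16010 are unnamed here. Symbols were updated through a RefSeq table (GRCm38.p6), which held 23328 of the 23521. The highest-mean probe set per gene left 22180 genes, and 11090 lay at or above the median gene mean of 5.03. Members and lists were chosen with earlier results of these data known. All members could be named, with values on each array for those called or central to a pathway, and up to 2 highest and 2 lowest genes of other lists. Differences are log2 values of 1 array minus another, so the number of arrays limits their precision. The fit used limma 3.58.1 in R 4.3.3, and other steps used Python 3.11.15 with pandas 2.3.3 and numpy 2.4.6. The fit was also run on simulated data with a genotype change only. These held no metformin effect, so they do not show how the fit handles responses that differ between genotypes. Alternatives were 2 expression filters, cyclic loess, centring on the median, averaging the probe sets of each gene, calling at 1.5-fold and other variance models.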

Additional observations from a re-analysis of the deposited data

Results flagged for a closer look

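Mr1 differed between metformin and vehicle in opposite directions in the 2 genotypes, with a difference of 1.78 in KO and -1.10 in WT, and this difference between genotypes was not tested. H2-Ab1 had -0.79 in KO and 0.55 in WT, and H2-M10.1 had -0.62 in KO and 0.93 in WT, each with 1 array per group and untested as well.

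Outside the 43 genes, a probe set that the annotation gives to H2-Q6 and H2-Q8 together, and so to no single gene, was higher in KO than in WT under vehicle by 1.21. Its log2 values were 6.33 (KO metformin), 6.99 (KO vehicle), 6.41 (WT metformin) and 5.77 (WT vehicle).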

How the results depend on the processing

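With an expression filter at the median of all genes, 0 members were called in KO against WT under metformin (0.92% of genes), where class I genes had a median of -0.15 and class II genes of -0.45. Class II medians were then 0.14 in KO against WT under vehicle, -0.29 for metformin in KO and 0.35 for metformin in WT, over 4 genes, against -0.22, 0.11 and -0.14 over all genes past that filter. With a filter at the 75th percentile, 1 member was called in KO against WT under vehicle (12.9% of genes), 0 in that comparison under metformin (0.775%), and 1 for metformin in KO (3.99%). Over 3 genes the class II median was then 0.74 in KO against WT under vehicle, -0.53 under metformin, -0.48 for metformin in KO and 0.55 for metformin in WT, and the class I median of KO against WT under metformin was -0.16. Both filters leave fewer genes. After cyclic loess the class II median of KO against WT under vehicle was 0.044, and 0 members were called for metformin in WT (1.21% of genes). Centring each array on its median moved the median of all genes in KO against WT under vehicle to -0.12, against 0.03 as deposited, and gave -0.077 for class I and 0.11 for class II. It also moved the share of all called genes that were lower in KO under vehicle to 81.5%, against 62.8% as deposited, and that of genes lower with metformin to 23.6% in KO and 66.6% in WT, against 39.1% and 50.3%. A 1.5-fold rule called 7, 3, 7 and 5 members in KO against WT under vehicle and under metformin and for metformin in KO and in WT, against backgrounds of 26.5%, 6.37%, 14.8% and 11%. The other 56 alternative values for counts and medians, those of the additive fit included, stayed within 1.5 times the count or 0.1 of the median. Within these limits some medians near 0 turned sign. An example is the class I median of KO against WT under vehicle, 0.074 as deposited and -0.019 after cyclic loess. In the additive fit 0 members were called under each alternative, with genotype calls over all genes of 8 with a trend, 3 without a filter, 0 with the 75th percentile filter and 40 after centring, against 5. No paired analysis was possible because each group holds 1 array, and no array could be left out of a comparison.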

Other observations

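Several further H2 genes were measured only through probe sets that the annotation shares between genes, and such values belong to no single gene. A probe set shared by H2-Q7, H2-Q8 and H2-Q9, which encode Qa-2 type class I chains, had log2 values of 8.99 on the KO metformin array, 9.79 on the KO vehicle array, 9.42 on the WT metformin array and 8.80 on the WT vehicle array. The KO vehicle array was highest and the WT vehicle array lowest, the order seen for H2-T23, H2-Eb1, Psmb8 and Psmb9 at their extremes. A second probe set shared by the same genes gave 4.14, 3.78, 4.54 and 4.38, with the KO vehicle array lowest. A probe set shared by H2-D1 and H2-Q2 had 5.08 (KO metformin), 5.61 (KO vehicle), 5.02 (WT metformin) and 4.93 (WT vehicle). A probe set shared by H2-T22 and H2-T9 had 6.27, 5.82, 6.60 and 6.68 on these arrays, lower in KO than in WT under both treatments (-0.33 under metformin and -0.86 under vehicle). A probe set shared by Cd74, the invariant chain of class II molecules, and a microRNA gene had 9.91, 9.62, 9.87 and 9.95, with a difference of -0.33 in KO against WT under vehicle.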
